A study of Homo sapiens with 18 samples.

Results

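The DNA replication machinery was read here as 42 listed genes, out of 19750 genes in the deposited table, in NCI-H211 cells. NCI-H211, a line from small cell lung cancer, belongs to the tuft-cell-like subtype, which depends on the octamer-binding transcription factor POU2F3. The genes were listed by name for their known roles, with earlier results of these data known. All 42 had a row and passed the filter on low values. All cells carried Cas9. The groups were L191A sgPOU2F3, L191A sgRosa, WT sgPOU2F3, WT sgRosa, empty vector sgPOU2F3 and empty vector sgRosa, with 3 libraries each. L191A and WT cells stably expressed a guide-resistant POU2F3 cDNA, with or without a leucine-to-alanine change, and empty-vector cells had no cDNA. sgPOU2F3 targets endogenous POU2F3 and sgRosa is the control guide, each given by lentivirus, and polyadenylated RNA was taken on day 5. Infections were done in triplicate and no separately made stable lines are named, so p-values measured the spread between infections.

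Replication starts when the origin recognition complex (ORC1, ORC6), CDC6 and CDT1 load the ring of MCM2 to MCM7 onto DNA in G1, a step called licensing. In S phase CDC45 and the GINS proteins, with MCM10, turn that ring into the active helicase. Primase and polymerase alpha then start each strand, the RFC complex loads the PCNA clamp, and polymerases delta and epsilon extend the strands. RPA covers single-stranded DNA, FEN1 and LIG1 join the lagging-strand pieces, ribonucleotide reductase (RRM1, RRM2) and thymidylate synthase (TYMS) supply nucleotides, and the CHAF1 subunits place histones on the new DNA. Many of these genes are known targets of E2F factors, which are held in check by the retinoblastoma protein family until cells enter S phase.

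The promoters of the group were compared by their letters, since the genes share a process. RefSeq promoter windows (GRCh38.p14, 250 bases before to 50 bases after the start) were found for 36 of the 42 genes. At least 1 of the E2F forms TTTCGCGC, TTTGGCGC and TTTCCCGC, on either strand, was in 17 of the 36 windows (47.2%) and in 2.79% of all 27305 windows. The CCAAT box (CCAAT, either strand) was in 22 of 36 (61.1%) and in 35.7% of all windows. The octamer ATGCAAAT, the motif that POU factors bind, was in 0 of 36 and in 1.8% of all windows. These are matches of letters in a short window and not measured binding. The 120 bases before the start are printed for 3 genes with different roles (a helicase subunit, the clamp and the leading-strand polymerase), each with an E2F form in capitals. They lie at chr2:135876444-135876563, chr20:5126623-5126742 and chr12:132687343-132687462, all on the minus strand and read 5′ to 3′ towards the gene.
MCM6: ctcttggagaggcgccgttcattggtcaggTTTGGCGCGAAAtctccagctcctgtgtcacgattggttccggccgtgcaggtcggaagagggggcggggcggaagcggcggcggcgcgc
PCNA: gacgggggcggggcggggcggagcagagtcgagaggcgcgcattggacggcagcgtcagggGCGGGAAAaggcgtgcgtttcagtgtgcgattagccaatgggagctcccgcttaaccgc
POLE: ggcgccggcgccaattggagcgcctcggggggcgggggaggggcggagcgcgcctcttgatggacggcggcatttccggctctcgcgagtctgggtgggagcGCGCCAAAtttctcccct
In MCM6 the capitals hold 2 overlapping forms, TTTGGCGC on the printed strand and TTTCGCGC on the other. In PCNA the capitals are TTTCCCGC and in POLE TTTGGCGC, both read on the other strand. The MCM6 stretch holds no GENCODE exon base, the PCNA stretch 4 and the POLE stretch 23. The marked form of POLE lies within those 23 bases, before the RefSeq start but not before the GENCODE one.

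Values are TPM scaled by median-ratio factors, called scaled TPM, and differences are on the log2(scaled TPM + 1) scale, which understates the change of genes at low levels. A gene was called at a limma adjusted p under 0.05 over the 13072 genes tested. Depth is unknown in TPM. Ribosomal protein genes took 38.0% of the TPM in replicate 1 of L191A sgRosa, where the median tested gene was at 7.06 TPM. The same values were 32.8% and 12.7 TPM in replicate 1 of WT sgPOU2F3, and these 2 libraries are called skewed here. In the other 16 libraries ribosomal protein genes took 15.8% to 26.4%. Both libraries read long transcripts low, with slopes on log2 transcript length of −0.365 and −0.135 against their fellow replicates. The counts of replication genes called are therefore also given in the 16 libraries. Those keep empty-vector sgPOU2F3 replicate 2 and sgRosa replicate 3, which had slopes of the other sign (0.104 and 0.089). Values of single genes and of other lists are given in the 16 libraries only for some. POU2F3 itself read 263, 272 and 268 scaled TPM in empty-vector sgPOU2F3 cells and 610, 615 and 663 in empty-vector sgRosa cells (log2 difference −1.23, SE 0.30, adjusted p = 0.00637), while cDNA reads may count as POU2F3 in WT and L191A cells. It read 347, 1067 and 842 scaled TPM in L191A sgRosa cells and 1257, 1590 and 1512 in WT sgRosa cells (−1.09, adjusted p = 0.00812, and −0.61, adjusted p = 0.00142, in the 16 libraries), so the lines differed in POU2F3 level as well as in sequence. L191A sgRosa cells were not called against empty-vector sgRosa cells (0.11, adjusted p = 0.79), but were in the 16 libraries (0.60, adjusted p = 0.00312). Under sgPOU2F3 the values were 605, 668 and 654 in L191A cells and 1588, 1277 and 1013 in WT cells (−0.99, adjusted p = 0.027, and −0.82, adjusted p = 0.000179, in the 16 libraries). The part of the POU2F3 level in the differences between lines was not tested. All 10 tuft-like markers were detected in every library, with lowest values from 1.26 scaled TPM for CHAT to 263 for POU2F3 itself. The 5 fibroblast markers summed to between 7.71 and 23.0 scaled TPM, and the 4 T cell and myeloid markers to between 4.28 and 7.99, of which CD3E was listed at 0 and PTPRC reached 5.28.

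The highest of the 42 genes by mean over all libraries, on the per-length scale and pooled over groups, were the clamp PCNA (511 scaled TPM), TYMS (376), the helicase subunit MCM7 (277), the polymerase delta subunit POLD2 (225) and RRM1 (203). The lowest were the helicase activators MCM10 (14.3) and GINS4 (16.8), the fork protection protein TIPIN (22.5) and ORC1 (23.3). In WT sgRosa cells TYMS (256) was above PCNA (191.1). PCNA carried 1 very high value, 1765 scaled TPM in L191A sgRosa replicate 1, against 531 and 583 in the other L191A sgRosa libraries. Across the 42 genes the deviation of that library from the other replicates ran against log2 transcript length (r = −0.535, n = 42 genes of the same library, a description). It was most positive for the short RPA3 (2.55, transcript length 640 bases) and most negative for GINS4 (−1.13, 2932 bases). The typical gene's SD between replicates in L191A sgRosa cells was 0.34 log2 units with that library and 0.098 without it. WT sgPOU2F3 replicate 1 showed a smaller slope of the same sign (r = −0.312), with RPA3 highest (0.89) and POLE lowest (−0.997).

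**Figure D1:**
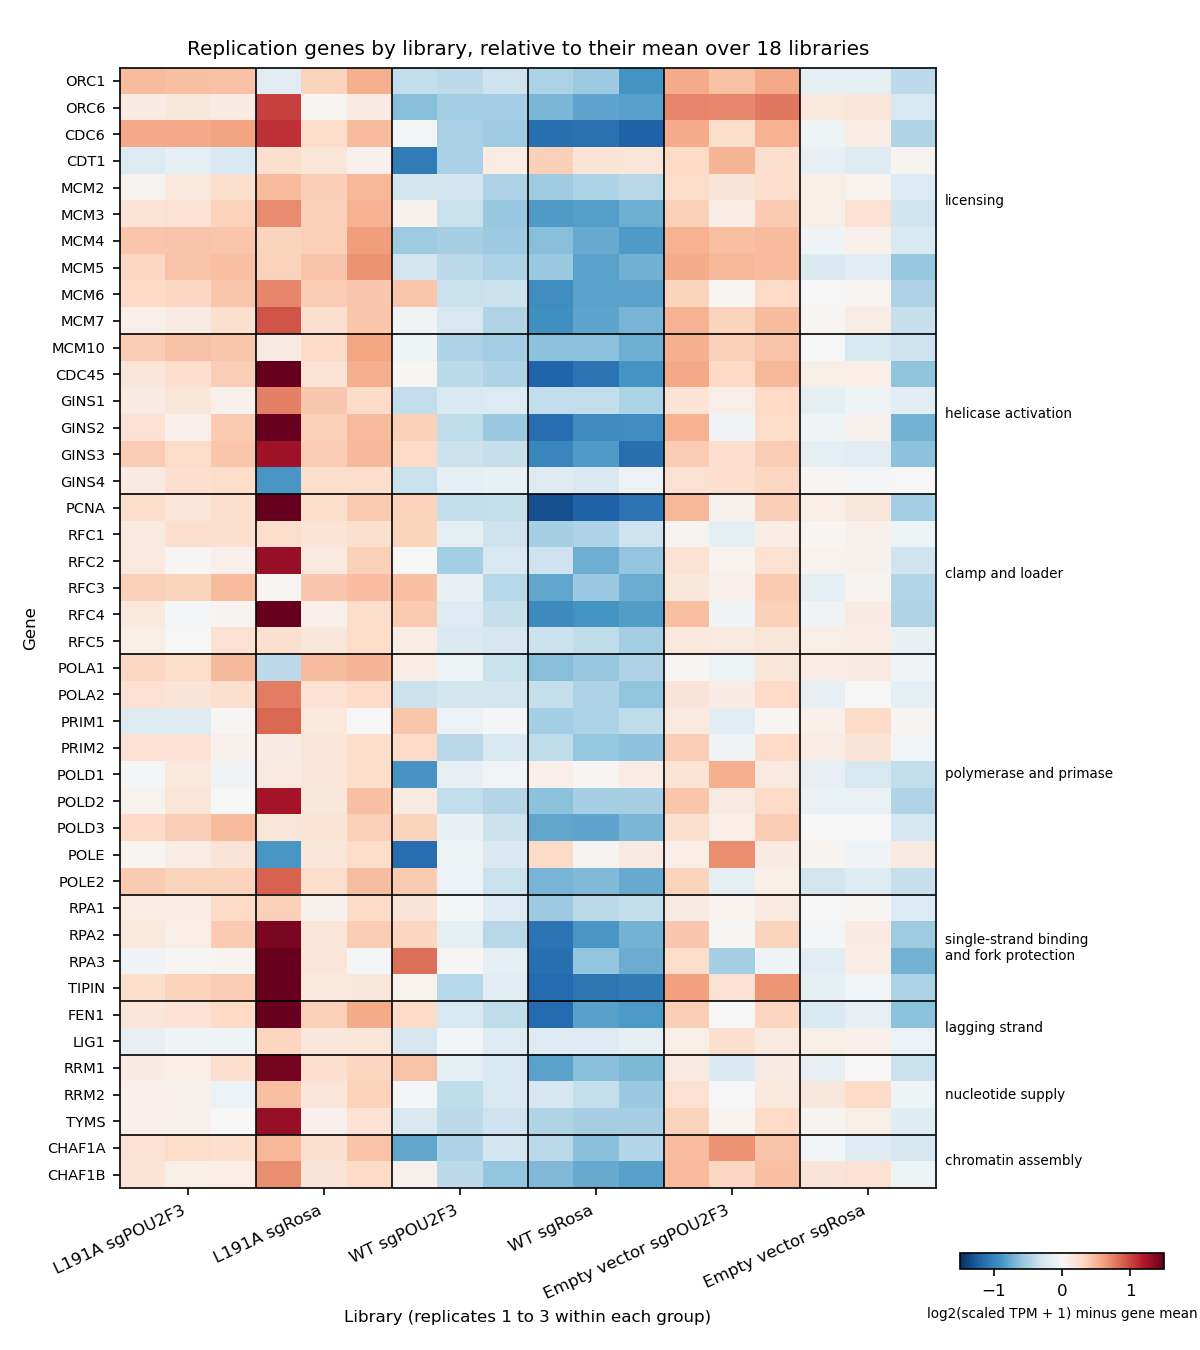
Level of the 42 replication genes (rows, grouped by role) in the 18 libraries (columns, replicates 1 to 3 of each group), as log2(scaled TPM + 1) minus the gene's mean over all libraries, from blue (lower) to red (higher), with colours saturating at 1.5. WT columns other than the skewed sgPOU2F3 replicate 1 are mostly blue, L191A and empty-vector sgPOU2F3 columns are mostly red, and the first L191A sgRosa column stands apart with values that reach 2.55 above its replicates.

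In empty-vector cells, which had no cDNA, part of the replication genes were higher with sgPOU2F3 and none was called lower. Of the 42 genes, 10 were higher and 0 lower than in sgRosa cells, with a median difference of 0.37. Over all genes tested, 12.6% were higher and 13.8% lower, with a median of −0.0038. The share of replication genes called higher, 10 of 42, was above the background, and 40 of 42 differences were positive. Without the skewed pair, which changes the shared spread but no empty-vector library, 29 were higher and 0 lower, against 28.0% of all genes higher and 27.3% lower. The values as deposited gave 7 higher, against 1040 of the 13072 genes tested higher and 1246 lower. The medians were then 0.23 for the replication genes and −0.13 for all genes. Between the groups, 26 genes were higher with no overlap of libraries, against 28.1% of all genes. More cells in S phase and more RNA per cell cannot be told apart in bulk RNA.

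Of 10 licensing factors, 6 were higher and none was lower, and 9 were higher in the 16 libraries, beside 6 of 6 genes of helicase activation (2 in the 18 libraries). MCM5, a subunit of the helicase ring, read 56.8, 54.5 and 53.4 scaled TPM in empty-vector sgPOU2F3 cells and 32.7, 33.7 and 25.5 in empty-vector sgRosa cells (log2 difference 0.83, SE 0.13, adjusted p = 0.000137). MCM4, another ring subunit, read 89.4, 85.5 and 86.7 against 59.7, 65.6 and 52.8 (0.55, SE 0.11, adjusted p = 0.00156). ORC1, the ATPase of the origin recognition complex, read 33.1, 30.5 and 33.3 against 20.1, 19.96 and 16.6 (0.75, SE 0.16, adjusted p = 0.0023). For these the sgPOU2F3 libraries lay above every sgRosa library. ORC6 rose as well (0.72, SE 0.20, adjusted p = 0.0125), as did CDC6 (0.59, adjusted p = 0.0375) and MCM7 (0.51, adjusted p = 0.046). The MCM2 to MCM7 transcripts summed to 860 ± 54.4 scaled TPM in sgPOU2F3 cells and 639 ± 98.3 in sgRosa cells (SD, n = 3 each).

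Outside licensing, 4 of 32 genes rose in empty-vector cells, a share near that of all genes (12.6%), and 20 of 32 were higher in the 16 libraries, against 28.0%. CHAF1A, the large subunit of the chromatin assembly factor, read 58.3, 67.9 and 57.1 scaled TPM with sgPOU2F3 and 40.9, 36.6 and 35.0 with sgRosa (0.69, SE 0.13, adjusted p = 0.00105). MCM10, which helps to start the helicase, read 20.3, 17.8 and 18.8 against 13.6, 11.5 and 10.9 (0.62, SE 0.14, adjusted p = 0.00365). Neither gene had overlapping groups, and the GINS subunit GINS3 (0.64, adjusted p = 0.038) and the catalytic subunit of polymerase delta, POLD1 (0.54, adjusted p = 0.0335), also rose. PCNA read 624, 463 and 573 against 475, 500.1 and 310.0 and was not called (0.39, SE 0.35, adjusted p = 0.451). RRM2, RFC1 and POLA1, the catalytic subunit of polymerase alpha, had differences of 0.0001, 0.0046 and −0.015, none called. The primase subunit PRIM1 had the most negative difference, −0.13 (adjusted p = 0.66). Without empty-vector sgRosa replicate 3, which read most of these genes lower than its fellow replicates, 5 genes were called, and 6 without empty-vector sgRosa replicate 1 or sgPOU2F3 replicate 1.

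**Figure D2:**
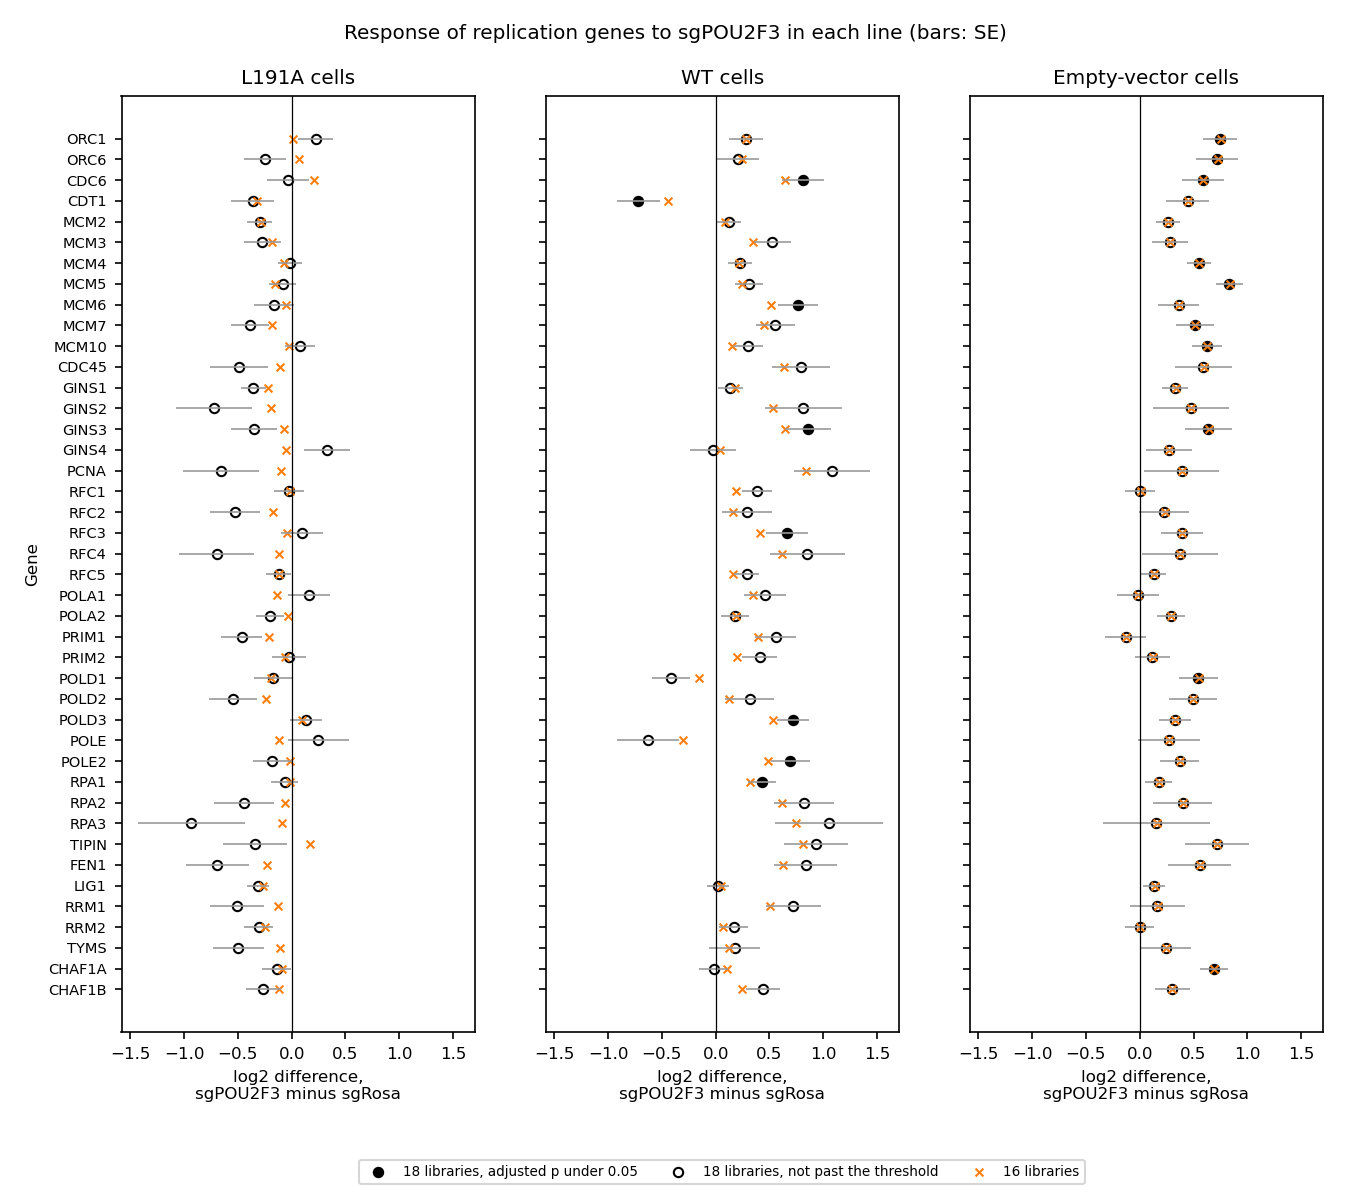
Log2 difference between sgPOU2F3 and sgRosa cells for each of the 42 genes (rows) in L191A, WT and empty-vector cells, with SE bars. Filled points passed an adjusted p of 0.05 in the 18 libraries, open points did not, and crosses give the difference in the 16 libraries. Empty-vector points lie from −0.13 to 0.83, WT points from −0.72 to 1.08 and L191A points from −0.93 to 0.33.

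Lists of related genes were read beside this comparison, with values for up to 3 called genes per direction and list. The background was again 12.6% of all genes higher and 13.8% lower, and the shares of the replication factor, mitosis and repair lists called higher lay below it. Of 41 other replication factors, 4 rose and 0 fell in empty-vector cells (median 0.22), among them UHRF1, which guides maintenance DNA methylation (0.73, adjusted p = 0.00342), and SSRP1, a subunit of the FACT histone chaperone (0.53, adjusted p = 0.00653). Of 22 other genes of nucleotide supply, 4 rose and 1 fell (median 0.37), including thymidine kinase TK1 (1.38, adjusted p = 0.000725), at 133, 97.7 and 116 scaled TPM with sgPOU2F3 and 47.8, 53.3 and 31.8 with sgRosa. RRM2B, the p53-induced reductase subunit, was the gene that fell (−0.43, adjusted p = 0.0163). Of 24 mitosis genes 1 rose, CDC20 (0.52, adjusted p = 0.00875), and the median was 0.039. Among 16 genes of replication stress and repair, 1 rose, ATRIP (0.45, adjusted p = 0.0244), with a median of 0.21. Without the skewed pair these lists had 18 higher and 5 lower of 41, 16 and 1 of 22, 5 and 3 of 24, and 8 and 0 of 16, against 28.0% and 27.3% of all genes.

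Genes that control the passage from G1 into S phase moved in both directions in the same comparison, with 9 of 33 higher and 7 lower, against 12.6% and 13.8% of all genes. The 16 libraries gave 13 and 10, against 28.0% and 27.3%, so the lower share there was near the background. The kinase inhibitor CDKN2B read 9.92, 8.59 and 10.5 scaled TPM with sgPOU2F3 and 1.42, 1.30 and 1.39 with sgRosa (2.17, SE 0.15, adjusted p = 1.78e-08). CDKN1A, the p21 inhibitor, read 10.6, 10.9 and 11.5 against 3.38, 4.13 and 3.88 (1.33, SE 0.12, adjusted p = 5.78e-07). Both inhibitors thus rose in the libraries in which licensing genes rose. Other control genes fell. RBL2, the retinoblastoma family member p130, read 39.2, 43.2 and 40.5 against 94.7, 95.6 and 112 (−1.27, adjusted p = 3.65e-05). FBXW7, the substrate receptor of a ubiquitin ligase for cyclin E and MYC, fell by 1.14 (adjusted p = 1.79e-06) and the p27 inhibitor CDKN1B fell by 0.72 (adjusted p = 6.71e-05). Summed tuft-like markers ran from 1395 to 1474 scaled TPM with sgPOU2F3 and from 3584 to 3804 with sgRosa, all 10 of them measured. The 5 fibroblast markers summed to between 12.9 and 17.2 with sgPOU2F3 and between 7.71 and 8.47 with sgRosa, and their part in the result was not tested.

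In WT cells part of the replication genes were also higher with sgPOU2F3, and CDT1 was lower. Of 42 genes 7 were higher, against 6.64% of all genes, and 1 was lower, against 6.01%. The median was 0.42, and −0.023 over all genes. The 16 libraries had 19 higher, against 15% of all genes, and 1 lower, against 10.8%, with a median of 0.26. Libraries of 30 genes did not overlap and were higher with sgPOU2F3, against 28.9% of all genes. The 8 genes called in the 18 libraries were called again in the 16. POLD3, a polymerase delta subunit, read 59.1, 43.3 and 37.3 scaled TPM in WT sgPOU2F3 cells and 26.9, 26.6 and 28.7 in WT sgRosa cells (0.72, SE 0.15, adjusted p = 0.00852). CDC6, which loads the helicase ring, read 86.2, 62.6 and 60.4 against 39.5, 39.7 and 37.3 (0.81, SE 0.20, adjusted p = 0.0211). GINS3 read 28.0, 17.97 and 17.6 against 11.04, 12.1 and 9.82 (0.86, SE 0.22, adjusted p = 0.0235). In each the skewed replicate 1 gave the highest sgPOU2F3 value, while all sgPOU2F3 libraries lay above all sgRosa ones. The remaining rises were MCM6 (0.77, adjusted p = 0.0216), POLE2 (0.69, adjusted p = 0.0285), the clamp loader subunit RFC3 (0.66, adjusted p = 0.0387) and RPA1 (0.43, adjusted p = 0.0417).

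PCNA had the largest difference in WT cells without passing the threshold in the 18 libraries. It read 563, 342 and 346 scaled TPM with sgPOU2F3 and 177, 191.1 and 205 with sgRosa (1.08, SE 0.35, adjusted p = 0.0526), and 0.84 (adjusted p = 0.00379) in the 16 libraries. CDT1, the licensing factor degraded at the start of S phase, read 20.6, 31.0 and 47.2 with sgPOU2F3 and 56.4, 50.4 and 49.5 with sgRosa (−0.72, SE 0.20, adjusted p = 0.0346). Its sgPOU2F3 libraries all lay below the sgRosa ones, and replicate 3 lay close to them. The counts in WT cells were sensitive to single libraries. With 1 of the 3 WT sgRosa libraries or WT sgPOU2F3 replicate 1 left out, 1 gene was called, and without WT sgPOU2F3 replicate 3, 19 were. As deposited, 3 replication genes were called, against 892 of the 13072 genes tested. The medians were −0.027 for the replication genes and −0.42 for all genes. Of all calls 23.0% were then higher (52.5% with scaling), and RPA1 stood at −0.021.

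In L191A cells no replication gene was called between the guides, while 9.65% of all genes were called, 6.41% higher and 3.24% lower. The median was −0.27, 7 of 42 differences were positive, and 9 genes had an unadjusted p under 0.05, all lower. The median was −0.11 in the 16 libraries, where LIG1, the ligase of the lagging strand, was the 1 gene called (−0.26, adjusted p = 0.032), against 6.28% of all genes lower and 9.06% higher. Libraries of 10 genes did not overlap and were lower with sgPOU2F3, against 14.8% of all genes. LIG1 read 81.7, 86.1 and 85.0 scaled TPM in L191A sgPOU2F3 cells and 112, 100.5 and 102 in L191A sgRosa cells, with no overlap. MCM4 read 83.2, 84.0 and 83.4 against 78.2, 79.9 and 96.1 (−0.015, SE 0.11, adjusted p = 0.936). MCM5 read 47.7, 51.8 and 52.6 against 48.7, 51.5 and 61.7 (−0.082, SE 0.13, adjusted p = 0.666), and the groups overlapped for both ring subunits. PCNA read 530.1, 503 and 523 against 1765, 531 and 583 (−0.66, SE 0.35, adjusted p = 0.241). Leaving out L191A sgRosa replicate 2 gave 4 calls and replicate 3 gave 2. Over all genes 66.4% of the calls were higher, and 90.6% with TPM as deposited, where the medians were 0.18 for the replication genes and 0.33 for all genes.

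The difference between these responses was tested directly. The response of L191A cells lay below that of empty-vector cells for 9 of 42 genes and above it for 0, against 5.75% of all genes below and 6.42% above, with a median of −0.59. The 9 genes were ORC6, MCM2, MCM4, MCM5, MCM7, GINS1, GINS3, POLD2 and CHAF1A. MCM5 differed by −0.91 (SE 0.18, adjusted p = 0.00428), as the difference of −0.082 in L191A and 0.83 in empty-vector cells. CHAF1A differed by −0.83 (SE 0.19, adjusted p = 0.0103) and GINS1 by −0.68 (adjusted p = 0.0173). All 9 were among 20 genes below in the 16 libraries, against 14.8% of all genes below and 14.1% above, with a median of −0.45. The count was 2 without empty-vector sgRosa replicate 3, 19 without L191A sgRosa replicate 2, 5 without empty-vector sgPOU2F3 replicate 2, and 3 without the other empty-vector sgPOU2F3 libraries or any 1 L191A sgPOU2F3 library. It was 1 as deposited, where 795 of the 13072 genes tested were called, 70.4% of them higher (52.7% with scaling). The medians as deposited were −0.025 for the replication genes and 0.48 for all genes. MCM2 and MCM4 then stood at 0.024 and 0.012.

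The response of WT cells differed from that of empty-vector cells for 3 genes, all lower, a share close to the 8.34% of all genes lower, with 6.91% higher. The 3 were CDT1 (−1.17, adjusted p = 0.0117), POLD1 (−0.96, adjusted p = 0.0184) and CHAF1A (−0.71, adjusted p = 0.0186). Without the skewed pair 1 gene, PRIM1, was above (0.52, adjusted p = 0.0104) and 8 were below, against 16.6% and 17.6% of all genes. Without empty-vector sgPOU2F3 replicate 2 the count was 1. The calls over all genes were 45.3% higher, and 24.5% with TPM as deposited. There 1 replication gene and 913 of the 13072 genes tested were called. The medians as deposited were −0.12 for the replication genes and −0.26 for all genes. Between L191A and WT cells the response differed for 11 genes, all lower in L191A cells, against 5.98% of all genes lower and 7.08% higher, with GINS3 (−1.21, adjusted p = 0.0229) and PRIM1 (−1.02, adjusted p = 0.0276) at the smallest p. That count was 0 without WT sgRosa replicate 1, WT sgPOU2F3 replicate 1 or L191A sgPOU2F3 replicate 1 or 2, and 26 without L191A sgRosa replicate 2. It was 11 in the 16 libraries, of which 7 were shared, against 6.62% of all genes lower and 7.86% higher. The deposited values gave 2, against 1531 of the 13072 genes tested, and 91.7% of all calls were higher (54.2% with scaling). The medians were then 0.30 for the replication genes and 0.79 for all genes.

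Under the control guide the 3 lines differed in the level of most of the group in scaled TPM. The group means ran L191A above empty vector above WT for 38 of the 42 genes, and for 26 of them no libraries overlapped between the 3 lines (30 in the 16 libraries). This order of 3 lines was not counted over all genes. By pairs, 3039 of the 13072 genes tested were higher in L191A than in empty-vector cells without overlap. In WT cells 3502 were lower than in empty-vector cells without overlap. The MCM2 to MCM7 transcripts summed to 1099, 829 and 933 scaled TPM in L191A, 381, 394 and 412 in WT and 676, 714 and 528 in empty-vector sgRosa cells. L191A and WT lay on either side of the empty-vector libraries. The place of L191A above empty vector depended on the scaling. Its median difference over the replication genes was 0.52 with scaling and −0.10 with TPM as deposited, where all genes had −0.56. In the 16 libraries as deposited it was 0.20. The median of WT minus empty vector was −0.43 as deposited. Fibroblast markers summed to between 15.2 and 23.0 scaled TPM in L191A and between 14.1 and 19.8 in WT, against 7.71 to 8.47 in empty-vector sgRosa cells, and their part in these differences was not tested.

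L191A cells exceeded WT cells under sgRosa for 38 of 42 genes and lay below for 0, against 25.8% of all genes higher and 24.3% lower. The median was 1.08, and −0.031 over all genes. The 16 libraries gave 39 and 0, with a median of 0.99 and with 28.9% of all genes higher and 28.4% lower, and leaving out any 1 library gave 38 to 39. CDC6 read 189, 106 and 122 scaled TPM in L191A sgRosa cells and 39.5, 39.7 and 37.3 in WT sgRosa cells (1.77, SE 0.20, adjusted p = 8.8e-06). MCM4 read 78.2, 79.9 and 96.1 against 39.5, 36.4 and 34.1 (1.18, SE 0.11, adjusted p = 1.46e-06). MCM3, a ring subunit, read 244, 191.3 and 215 against 82.0, 83.5 and 89.1 (1.34, SE 0.17, adjusted p = 3.11e-05). For all 3 the L191A libraries lay above every WT library, with or without the skewed one. GINS3 read 55.9, 29.8 and 32.1 against 11.04, 12.1 and 9.82 (1.69, SE 0.22, adjusted p = 2.96e-05). PCNA differed by 2.09 (adjusted p = 0.0003), and by 1.54 (adjusted p = 2.51e-06) in the 16 libraries. FEN1, the flap nuclease, read 401, 143 and 164 against 48.8, 62.3 and 60.6 (1.87, SE 0.29, adjusted p = 0.000173).

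Every clamp, clamp loader, single-strand binding, lagging-strand, nucleotide supply and chromatin assembly gene was higher in L191A than in WT sgRosa cells, 17 of 17 with TIPIN, from LIG1 (0.40, adjusted p = 0.005) to PCNA. The 4 genes not called were CDT1 (−0.080), GINS4 (0.054), POLD1 (0.13) and POLE (−0.29), and GINS4 was called in the 16 libraries (0.43, adjusted p = 0.000266). CDT1 read 52.3, 49.6 and 45.8 in L191A and 56.4, 50.4 and 49.5 in WT sgRosa cells, with overlap. POLD1 read 62.4, 63.8 and 67.4 against 59.3, 56.9 and 60.5. As deposited, 18 genes were higher and 0 lower, against 1013 of the 13072 genes tested higher and 6277 lower. Of all calls 13.9% were then higher (51.5% with scaling). The medians of the replication genes and of all genes were then 0.36 and −0.67. LIG1, RFC5, RPA1, RFC1, RRM2 and PRIM2 had negative values there, from −0.34 to −0.0064.

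**Figure D3:**
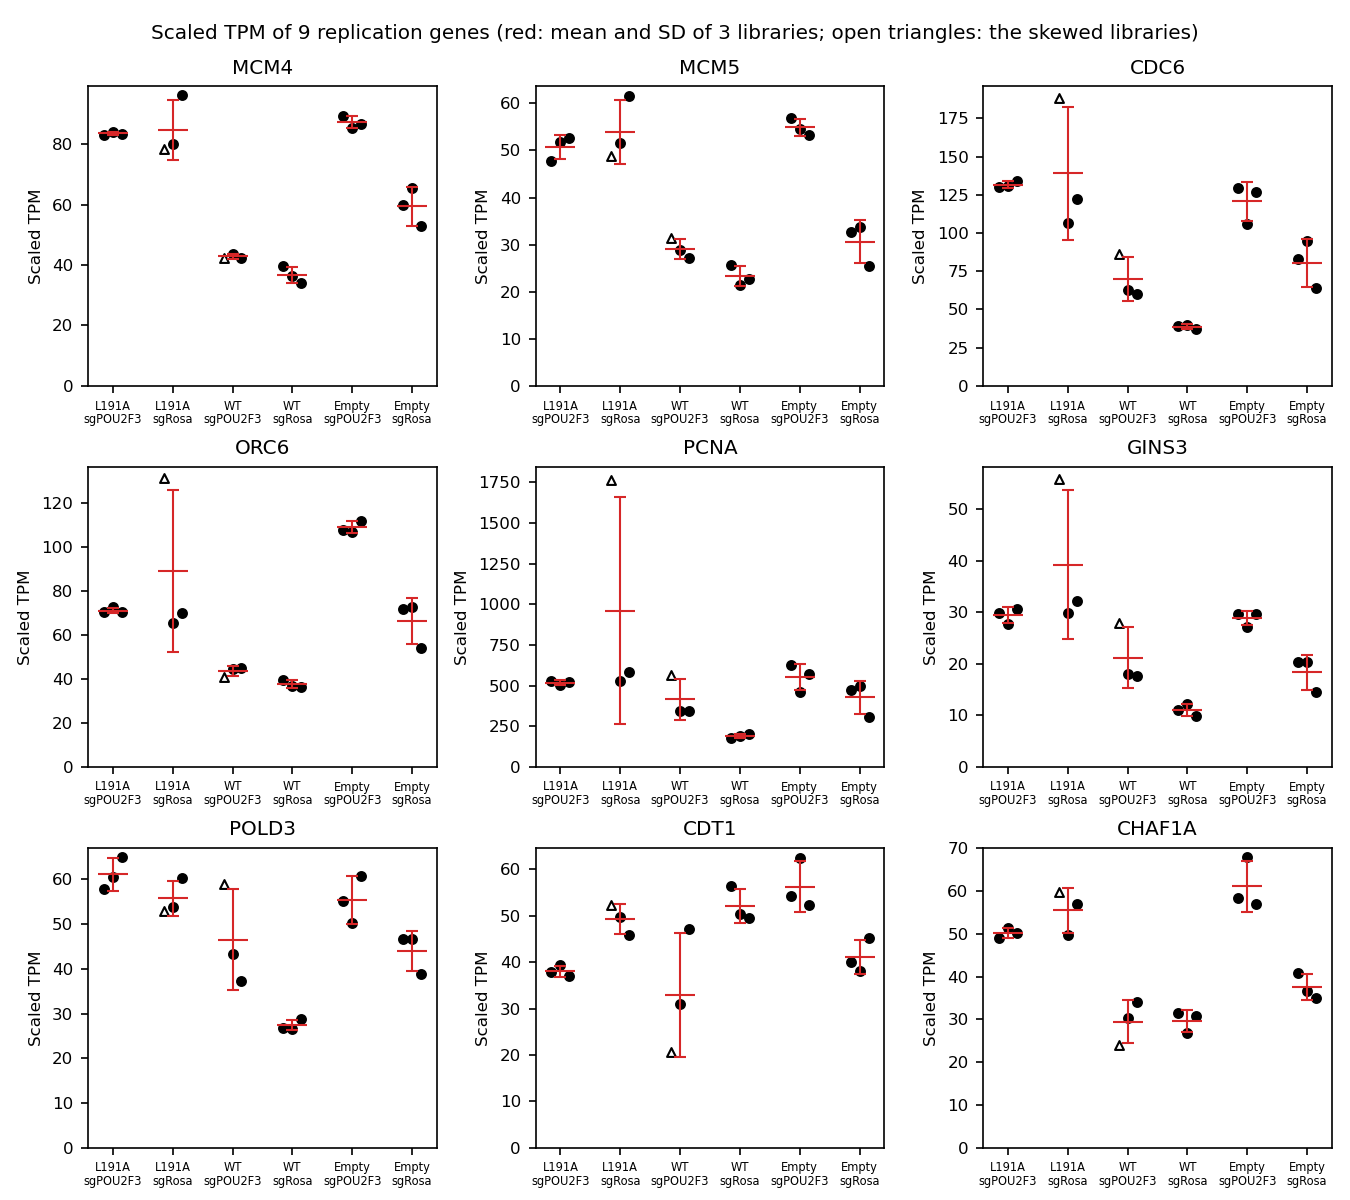
Scaled TPM of 9 replication genes in each library, by group (L191A, WT and empty vector, sgPOU2F3 left of sgRosa), with the mean and SD of 3 libraries in red and the skewed pair of libraries as open triangles. WT sgRosa is the lowest group for MCM4, MCM5, CDC6, ORC6, PCNA, GINS3 and POLD3, while CDT1 is at 52.1 scaled TPM in WT sgRosa and 41.1 in empty-vector sgRosa cells on average.

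Set against empty-vector cells, WT sgRosa cells were lower for 17 of 42 genes and higher for 0, against 5.51% of all genes lower and 7.62% higher, with a median of −0.53. Without the skewed pair 38 were lower and 2 higher, against 21.4% and 21.0% of all genes. The 17 included 7 of 10 licensing genes. MCM4 read 39.5, 36.4 and 34.1 scaled TPM in WT sgRosa cells and 59.7, 65.6 and 52.8 in empty-vector sgRosa cells (−0.68, SE 0.11, adjusted p = 0.000632). CHAF1B, the middle subunit of the chromatin assembly factor, read 32.1, 30.04 and 28.9 against 59.1, 60.4 and 48.8 (−0.86, SE 0.16, adjusted p = 0.00201). POLD3 read 26.9, 26.6 and 28.7 against 46.6, 46.6 and 38.9 (−0.66, SE 0.15, adjusted p = 0.00617). No libraries overlapped for these, nor for 37 of the 42 genes in the lower direction, against 26.8% of all genes. CDC6 (−1.02, adjusted p = 0.00253) and PCNA (−1.13, adjusted p = 0.0437) fell most. The 2 genes higher in the 16 libraries were CDT1 (0.35, adjusted p = 0.0311) and POLD1 (0.32, adjusted p = 0.0149). The count of 17 was 5 without empty-vector sgRosa replicate 1 or 2, and 9, 8 and 7 without WT sgRosa replicates 1, 2 and 3.

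L191A sgRosa cells were higher than empty-vector sgRosa cells for 23 of 42 genes and lower for 0, against 16% of all genes higher and 15.4% lower, with a median of 0.52. The 16 libraries gave 25 and 0 with 20 shared genes, a median of 0.43 and a background of 20.6% higher and 19.5% lower. GINS1, a helicase subunit, read 65.5, 51.0 and 47.0 scaled TPM in L191A sgRosa cells and 34.7, 36.5 and 34.0 in empty-vector sgRosa cells (0.61, SE 0.12, adjusted p = 0.00201). MCM5 read 48.7, 51.5 and 61.7 against 32.7, 33.7 and 25.5 (0.80, SE 0.13, adjusted p = 0.000341). POLE2, the second subunit of polymerase epsilon, read 59.3, 38.1 and 44.2 against 25.95, 27.5 and 24.6 (0.81, SE 0.18, adjusted p = 0.00454). The L191A libraries lay above the empty-vector ones for each of them, with or without the skewed library. The count fell to 8 without empty-vector sgRosa replicate 3. This direction depended on the scaling. With TPM as deposited the replication genes had a median of −0.10 with 2 higher and 1 lower. The median of all genes was −0.56, with 647 of the 13072 genes tested higher and 4052 lower. Of all calls 13.8% were thus higher (51.0% with scaling). Of the 23 genes, 9 were then negative, among them MCM2 (−0.17), ORC1 (−0.14) and MCM4 (−0.13). With TPM as deposited in the 16 libraries, an alternative chosen after seeing the data, 14 were higher and 1 lower. Of all genes 1216 were then higher and 3908 lower. The medians were 0.20 for the replication genes and −0.20 for all genes.

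Under sgPOU2F3 the WT line again had the lowest mean, for 39 of 42 genes, while L191A was highest for 11 and the empty-vector line for 29. WT cells were lower than empty-vector cells for 18 genes and higher for 0, against 15.9% of all genes lower and 14.6% higher, with a median of −0.46. Without the skewed pair 37 were lower and 0 higher, with a background of 25.6% lower and 24.8% higher. Of 10 licensing genes 9 were lower. ORC6 read 40.9, 44.7 and 45.0 scaled TPM in WT sgPOU2F3 cells and 108, 107 and 112 in empty-vector sgPOU2F3 cells (−1.31, SE 0.20, adjusted p = 0.000121). MCM4 read 42.5, 43.8 and 42.3 against 89.4, 85.5 and 86.7 (−1.01, SE 0.11, adjusted p = 5.43e-06). CHAF1A read 24.1, 30.3 and 34.1 against 58.3, 67.9 and 57.1 (−1.03, SE 0.13, adjusted p = 2.41e-05). The WT libraries lay well below the empty-vector ones in all 3. No clamp, clamp loader or RPA gene was called in the 18 libraries, while all 6 clamp and loader genes were lower in the 16. RRM1 stood at 0.0071 (adjusted p = 0.988). Over all genes 47.8% of the calls were higher, and 32.4% with TPM as deposited, where the medians were −0.66 for the replication genes and −0.19 for all genes.

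Between L191A and empty-vector cells under sgPOU2F3 no replication gene was called. With limma 0 of 42 passed, against 8.15% of all genes (3.92% higher and 4.24% lower), and 3 had an unadjusted p under 0.05. The median was −0.062. MCM4 read 83.2, 84.0 and 83.4 scaled TPM in L191A and 89.4, 85.5 and 86.7 in empty-vector cells (−0.061, SE 0.11, adjusted p = 0.849). ORC6 had the most negative difference, at 70.5, 72.7 and 70.4 against 108, 107 and 112 (−0.61, SE 0.20, adjusted p = 0.073). In the 16 libraries, with a smaller shared spread, 1 gene was higher and 6 lower, against 14.5% and 16.1% of all genes, and ORC6 was among the lower ones (−0.61, adjusted p = 0.00012). The other 5 were CDT1, POLD1, LIG1, CHAF1A and CHAF1B, and POLA1 was the higher one.

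Relative to WT cells, L191A cells under sgPOU2F3 had 11 genes higher and 0 lower, against 10.5% of all genes higher and 11.7% lower, with a median of 0.40. Without the skewed pair 35 were higher and 0 lower, against 22.3% and 22.1% of all genes, and the median was 0.52. MCM4 again had the smallest p, with 83.2, 84.0 and 83.4 scaled TPM in L191A and 42.5, 43.8 and 42.3 in WT cells (0.95, SE 0.11, adjusted p = 1.21e-05). CDC6 read 130.3, 131 and 134 against 86.2, 62.6 and 60.4 (0.93, SE 0.20, adjusted p = 0.00295). MCM10 read 18.1, 18.8 and 18.6 against 12.97, 9.60 and 9.22 (0.76, SE 0.14, adjusted p = 0.000901). No libraries overlapped for these. Of the 11 genes 7 were licensing factors and none was of the clamp and its loader, while the 16 libraries had 9 of 10 and 5 of 6 of these higher. Without WT sgPOU2F3 replicate 1 alone 19 genes were called. Over all genes 47.4% of the calls were higher, and 57.6% with TPM as deposited. There 20 replication genes were higher, against 1018 of the 13072 genes tested higher and 749 lower. The medians as deposited were 0.55 for the replication genes and 0.14 for all genes.

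The medians of the other lists are set beside that of the replication genes, and the difference between lists was not tested. Under sgRosa, L191A minus WT had a median of 0.65 for other replication factors (26 of 41 higher, 0 lower) and 0.89 for other nucleotide supply (17 of 22 and 0). The median was 0.87 for replication stress and repair (14 of 16 and 0) and 0.41 for mitosis (14 of 24 and 0). The replication genes had a median of 1.08, and of all genes 25.8% were higher and 24.3% lower. The nuclease EXO1 (1.48, adjusted p = 9.48e-06), the cytidine triphosphate synthase CTPS1 (1.11, adjusted p = 4.44e-05) and UHRF1 (1.13, adjusted p = 8.78e-05) were among the rises. For WT minus empty vector under sgPOU2F3 the mitosis genes had 0 calls of 24, against 14.6% of all genes higher and 15.9% lower. Their median was 0.17, beside −0.46 for the replication genes. In the 16 libraries 4 mitosis genes were higher and 3 lower, against 24.8% and 25.6% of all genes. UHRF1 (−1.36, adjusted p = 1.34e-05) and CTPS1 (−0.95, adjusted p = 0.000171) were lower in the 18 libraries of this comparison. The kinase inhibitor CDKN1B read 121, 125 and 119 scaled TPM in WT sgPOU2F3 cells and 51.5, 49.7 and 53.4 in empty-vector sgPOU2F3 cells (1.22, SE 0.10, adjusted p = 2.53e-07), and 112, 118 and 123 against 80.5, 85.5 and 91.6 under sgRosa (0.45, SE 0.10, adjusted p = 0.00711). CDKN1B was thus higher in the WT line under both guides, but the kinase inhibitors did not all move this way. CDKN2B was lower in WT than in empty-vector cells under sgPOU2F3 (−1.95, SE 0.15, adjusted p = 7.96e-08). CDKN1A was higher in WT cells under sgRosa (0.77, SE 0.12, adjusted p = 0.00045).

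**Figure D4:**
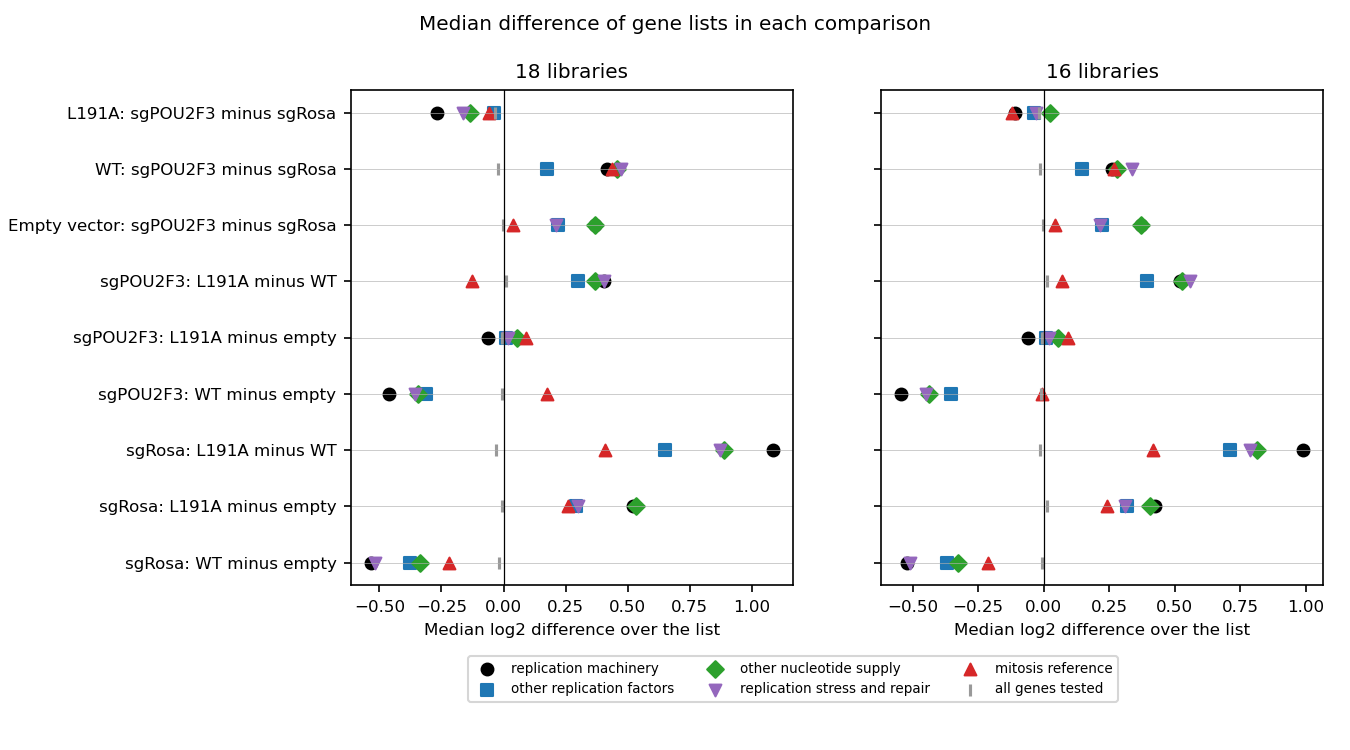
Median log2 difference over each gene list in 9 comparisons (rows, the first named group minus the second), in the 18 libraries on the left and the 16 libraries on the right, with the median of all genes tested in grey. Replication genes reach 1.08 for L191A minus WT under sgRosa and −0.46 for WT minus empty vector under sgPOU2F3, where the mitosis list stands at 0.17 in the 18 libraries.

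A few members stood outside the common pattern across the comparisons. CDT1, POLD1 and POLE were the members that were not lowest in WT cells under sgRosa. POLE, the catalytic subunit of the leading-strand polymerase, read 54.5, 45.8 and 49.1 scaled TPM in WT sgRosa and 45.9, 42.9 and 48.9 in empty-vector sgRosa cells, with overlap (0.11, adjusted p = 0.845). It read 19.7, 42.4 and 38.4 in WT sgPOU2F3 cells, where the low value is the skewed library and the median transcript length is 7320 bases. GINS4 was the 1 member called in no comparison of the 18 libraries, while the other 41 were each called at least once. TYMS lies across from TYMSOS and ENOSF1 on the opposite strand, and since the strand setting is not given in the sources used here, its reads cannot be told apart from theirs.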

How the data were processed

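RNA from NCI-H211 Cas9 cells (TRIzol, TruSeq kit v2, per the labels' protocols) gave 18 libraries in 6 groups of 3. The authors deposited TPM, for which kallisto and hg38 are named, per the submitters' processing notes. No source used here gives the kallisto version, the transcript set or the strand setting. TPM columns keep no depth, so no counting error was given. Of 19875 entries, 125 that named no gene (27 dates, 98 text fragments, 1.47% to 2.20% of the TPM) were left out. TPM were scaled by median-ratio factors over 12916 genes and taken as log2(scaled TPM + 1), and 13072 genes whose mean reached 1 TPM were tested. All libraries entered 1 model with a coefficient for each group (limma 3.58.1 in R 4.3.3, eBayes with a variance trend). Each of 12 two-sided contrasts was adjusted over all genes by the Benjamini-Hochberg method. The fit was tested on simulated data.

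Alternatives were TPM as deposited, a pseudocount of 0.1, no filter, the replicate number as a block, the 16 libraries without the skewed pair, subtraction of a lowess curve (span 0.3) of the values on log2 transcript length, fitted in each library (GENCODE 29 on GRCh38, the assembly of hg38), and each library left out in turn. Any member could be named, with full values for up to 6 called members with the smallest p per direction and contrast and for extreme members of each role. Other genes were named from fixed lists, up to 3 called genes with the smallest p per list, contrast and direction. Of 24 other nucleotide supply genes 22, and of 34 G1 to S control genes 33, were tested, and the others are not analysed here. The members and lists were chosen with earlier results of these data known.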

Additional observations from a re-analysis of the deposited data

Results flagged for a closer look

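Each result here is a test in limma of the difference between the guide responses of a pair of lines (sgPOU2F3 minus sgRosa in each), given as a log2 difference of differences that passed an adjusted p of 0.05 in the 18 libraries.

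Between WT and empty-vector cells, CDT1 (−1.17), POLD1 (−0.96) and CHAF1A (−0.71) responded lower in WT cells. All 3 passed again in the 16 libraries, and 8.34% of all genes responded lower in the 18. The share of replication genes called lower was close to that background. With TPM as deposited none of these 3 passed, and without empty-vector sgPOU2F3 replicate 2 only 1 of them did.

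Between L191A and empty-vector cells, POLD2 (−1.04), GINS3 (−0.99), ORC6 (−0.97), MCM5 (−0.91), MCM7 (−0.90), CHAF1A (−0.83), GINS1 (−0.68), MCM4 (−0.57) and MCM2 (−0.56) responded lower in L191A cells. All 9 passed again in the 16 libraries, and 5.75% of all genes responded lower in the 18. With TPM as deposited none of these 9 passed.

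Between L191A and WT cells, PCNA (−1.74), FEN1 (−1.52), CDC45 (−1.28), RPA2 (−1.26), RRM1 (−1.23), GINS3 (−1.21), PRIM1 (−1.02), MCM7 (−0.94), MCM6 (−0.93), POLE2 (−0.87) and MCM3 (−0.80) responded lower in L191A cells. In the 16 libraries 7 of these 11 passed again, and 5.98% of all genes responded lower in the 18. Both skewed libraries enter this difference, L191A sgRosa replicate 1 and WT sgPOU2F3 replicate 1, and their part in it was not tested beyond leaving them out.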

How the results depend on the processing

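Of 148 member differences called, 141 stayed called in the 16 libraries, 135 with the length trend removed, 146 with a pseudocount of 0.1, 125 with no filter, 56 with TPM as deposited and 124 with TPM as deposited in the 16 libraries, an alternative chosen after seeing the data. None changed sign except with TPM as deposited, where 20 did, and of 1026 values with 1 library left out 731 stayed called and none changed sign. The cause of these changes was not tested. TPM hold no depth, so what depth limits is unknown.

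The turned values with TPM as deposited were RPA1 (−0.021) for the WT guide effect. For L191A minus empty vector under sgRosa they were ORC1 (−0.14), MCM2 (−0.17), MCM3 (−0.12), MCM4 (−0.13), MCM7 (−0.040), MCM10 (−0.073), GINS1 (−0.024), POLA2 (−0.12) and CHAF1A (−0.078). For L191A minus WT under sgRosa they were RFC1 (−0.0595), RFC5 (−0.10), PRIM2 (−0.0064), RPA1 (−0.0695), LIG1 (−0.34) and RRM2 (−0.024). For the L191A response less that of empty-vector cells they were MCM2 (0.024) and MCM4 (0.012), and for the L191A response less that of WT cells MCM3 (0.099) and POLE2 (0.0011).

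Counts of called members that moved by over 1.5 times follow. In the 16 libraries they were 29 (10 in the 18 libraries) for the empty-vector guide effect, 20 (8) for WT, 1 (0) for L191A, 37 (18), 7 (0) and 35 (11) for WT minus empty vector, L191A minus empty vector and L191A minus WT under sgPOU2F3, 40 (17) for WT minus empty vector under sgRosa, and 9 (3) and 20 (9) for the responses of WT and L191A less that of empty-vector cells. With TPM as deposited they were 3 for the WT guide effect, 1 for L191A minus empty vector and 20 for L191A minus WT under sgPOU2F3, 3 and 18 for L191A minus empty vector (23) and minus WT (38) under sgRosa, and 1, 1 and 2 for the response differences WT less empty vector, L191A less empty vector and L191A less WT (11). With TPM as deposited in the 16 libraries they were 21 and 15 for the empty-vector and WT guide effects, 39, 7 and 36 under sgPOU2F3 in the order above, 34 for WT minus empty vector and 15 for L191A minus empty vector under sgRosa, and 10 and 3 for the WT less empty vector and L191A less WT responses. With the length trend removed they were 16 and 1 for the WT and L191A guide effects, 1 for L191A minus empty vector under sgPOU2F3, and 5 and 19 for those same responses. With no filter they were 3, 1 and 7 for the L191A guide effect, L191A minus empty vector under sgPOU2F3 and the L191A less WT response.

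Same-numbered libraries did not deviate together more than others. Of their 45 pairs 16 had a correlation over 0.1 (median −0.014), against 32 of 90 pairs of different number (median 0.003). Correlations ran from −0.601 to 0.618 and from −0.738 to 0.606, and 6 of 18 libraries were closest to their own number. With the replicate number as a block the L191A less WT response had 19 called members, in place of 11.

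With 1 library left out the counts ran from 5 to 8 (empty-vector guide effect), 1 to 19 (WT), 0 to 4 (L191A), 14 to 24, 0 to 0 and 8 to 19 (WT minus empty vector, L191A minus empty vector and L191A minus WT under sgPOU2F3), 5 to 17, 8 to 27 and 38 to 39 (the same under sgRosa), and 1 to 3, 2 to 19 and 0 to 26 (the responses WT less empty vector, L191A less empty vector and L191A less WT). The count of 11 for the last became 0 without WT sgRosa replicate 1, WT sgPOU2F3 replicate 1 or L191A sgPOU2F3 replicate 1 or 2, 1 without WT sgRosa replicate 2, 2 without WT sgRosa replicate 3 or L191A sgPOU2F3 replicate 3, 7 without WT sgPOU2F3 replicate 2, 17, 26 and 20 without L191A sgRosa replicates 1, 2 and 3, and 22 without WT sgPOU2F3 replicate 3.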
